A study of Rattus norvegicus with 8 samples.

Results

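Platelet genes for granule cargo, eicosanoid synthesis and the cytoskeleton were followed in whole blood of male Wistar rats, across 8 Affymetrix rat expression arrays. The set names 10 genes, taken by symbol: Pf4, Ppbp, Thbs1, Clu and Treml1 of the granules, F13a1 of the clotting cascade, listed with them, Alox12 and Tbxas1 of eicosanoid synthesis, Tubb1 of the cytoskeleton, and the calmodulin-binding gene Nrgn. The annotation of the platform gave 11 probe sets that name exactly 1 of them, out of 31042 probe sets tested, and these covered 9 genes. F13a1 and Clu had 2 probe sets each, all of which were kept, and no level of Thbs1, the granule glycoprotein thrombospondin, was analysed here.

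Rats bought at 7 weeks of age and acclimated for 1 week ate their diet for 8 weeks, and blood was drawn on day 56 after a fasted night. The high-fat group (4 arrays) ate the commercial diet Quick fat, and the mulberry group (4 arrays) ate the same diet with 1% mulberry leaf powder. Both groups therefore carried the high-fat feeding, and a normal-diet group was not analysed here. Each diet was fed to 10 rats. The labels call the arrays biological replicates without saying which rats, or how many, stand behind each, so each p-value reflects how far these 8 arrays vary, which may be partly technical. The comparison asks whether eating mulberry leaf alters transcripts of blood cells.

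Platelets have no nucleus and carry RNA made by their parent cell, the megakaryocyte. On activation they empty granules that hold chemokines, clotting and adhesive proteins, turn arachidonic acid into thromboxane and lipoxygenase products, and change shape through a ring of microtubules and an actin network. In whole blood, fewer platelets and less RNA per platelet cannot be told apart.

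The deposited values varied very little between arrays. Pf4 ran from 12.66730 to 12.66829 on the deposited scale, read as log2. Each level was therefore centred on its probe set's mean over the 8 arrays and divided by its SD, so that 1 SD unit is 1 such SD and 0 the mean. In these units 2 groups of 4 can differ by at most 1.87. Differences are mulberry minus high-fat, each with the SE from limma fitted over all 31042 probe sets. Where arrays were left out or rescaled, the unit was the SD over the values of that fit. With arrays left out, the signs of those differences, but not their sizes, compare with the 8-array ones. After quantile normalization or median centring the signs do not compare either.

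No member passed the limma test (adjusted p under 0.05): 0 of 11 probe sets, against 0 of all probe sets, a background of 0%. At an unadjusted p under 0.05 there were 2 of 11 members (Alox12 and 1 Clu probe set, both higher with mulberry) and 4.36% of all probe sets, made up of 2.74% higher and 1.61% lower. A difference of 1 SD unit or more toward mulberry was seen for 4 of 11 members, both probe sets of Clu, Alox12 and Tubb1, against 9.40% of all. Means were higher in the mulberry group for 10 of 11 members, against 52.7% of all probe sets, and the member median was 0.69 SD units against 0.06 for all. The groups overlapped for all 11 members, while 2.52% of all probe sets did not overlap (1.60% with mulberry above and 0.915% with mulberry below). The direction of the member median changed when 2 arrays, high-fat replicate 4 and mulberry replicate 4, were left out together. They were picked after the values were seen, as the lowest and the highest array of most members. Leaving them out therefore lowers most differences by construction. The median stayed above 0 without high-fat replicate 4 alone (0.30) and without mulberry replicate 4 alone (0.15). Without both, 4 of 11 members had the higher mean in the mulberry group and the median was -0.31, and median centring of the arrays put 96.9% of all probe sets higher, with a median of 1.15 against 1.01 for the members.

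**Figure D1:**
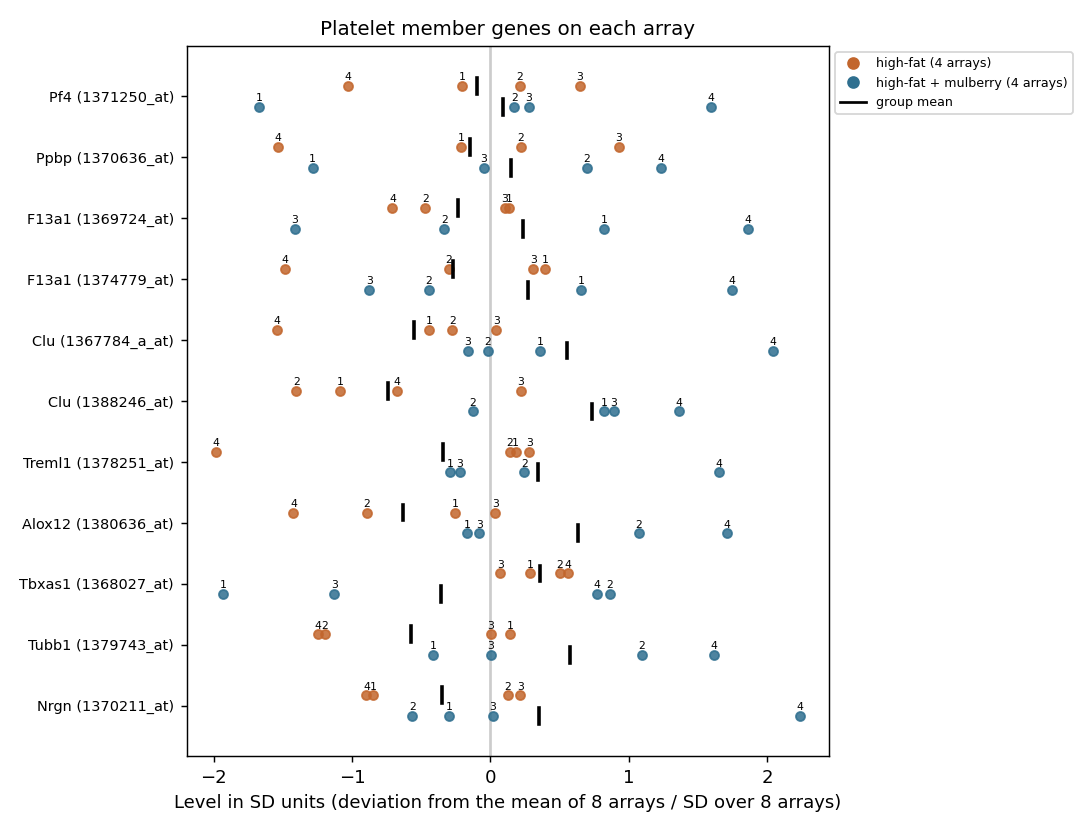
Level of each member probe set on each array in SD units (x axis), with 4 high-fat arrays in orange, 4 mulberry arrays in blue, the replicate number above each point and a black bar at the group mean. Mulberry replicate 4 was the highest array for 10 of 11 probe sets and high-fat replicate 4 the lowest for 7.

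The diet differences of the platelet chemokine genes were smaller than their SE, and their sign changed with single arrays. Pf4 encodes platelet factor 4, a chemokine of the alpha granule that binds heparin. Its level was -0.206, 0.214, 0.646 and -1.03 in high-fat replicates 1 to 4, and -1.67, 0.174, 0.280 and 1.59 in mulberry replicates 1 to 4. Mulberry replicate 1 was the lowest of all arrays and mulberry replicate 4 the highest, so the mulberry group enclosed every high-fat array. The means were -0.0940 ± 0.715 (SD, n = 4) and 0.0940 ± 1.34 (SD, n = 4), a difference of 0.19 ± 0.71 (SE; limma adjusted p = 1). Without mulberry replicate 4 the Pf4 difference was -0.38, without high-fat replicate 4 it was -0.13, and without mulberry replicate 1 it was 0.97.

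Ppbp encodes the precursor of another alpha-granule chemokine, which attracts neutrophils once it is cleaved. It lies next to Pf4 on chromosome 14 in RefSeq (GRCr8), with 0 genes listed between them. Its level was -0.215, 0.221, 0.931 and -1.54 in the high-fat arrays and -1.29, 0.699, -0.0485 and 1.24 in the mulberry arrays. The 2 lowest arrays, 1 of each diet, were high-fat replicate 4 and mulberry replicate 1. The difference was 0.30 ± 0.71 (SE; limma adjusted p = 1), and it was -0.19 without high-fat replicate 4, -0.07 without mulberry replicate 4 and 0.84 without mulberry replicate 1.

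F13a1, the A subunit of clotting factor XIII that crosslinks fibrin, is stored in the platelet cytoplasm and is also made by monocytes and macrophages. Probe set 1369724_at stood at 0.136, -0.470, 0.106 and -0.708 in the high-fat arrays and 0.824, -0.334, -1.41 and 1.86 in the mulberry arrays. Probe set 1374779_at stood at 0.393, -0.301, 0.311 and -1.49 in the high-fat arrays and 0.656, -0.443, -0.874 and 1.75 in the mulberry arrays. In both probe sets mulberry replicates 1 and 4 lay above every high-fat array and replicates 2 and 3 among or below them. The differences were 0.47 ± 0.70 and 0.54 ± 0.69 (SE; limma adjusted p = 1 for each), and without mulberry replicate 4 they were -0.10 and 0.07.

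Clu, the extracellular chaperone clusterin, is an alpha-granule protein with several transcript forms. Probe set 1367784_a_at was at -0.446, -0.276, 0.0440 and -1.54 in the high-fat arrays and 0.358, -0.0170, -0.164 and 2.05 in the mulberry arrays. The mulberry arrays lay above the high-fat median in 4 of 4 cases and above every high-fat array in 2. Its difference was 1.11 ± 0.58 (SE; limma unadjusted p = 0.0971, adjusted p = 1; two-sided exact permutation p = 0.0857). Probe set 1388246_at was at -1.09, -1.40, 0.219 and -0.676 in the high-fat arrays and 0.821, -0.129, 0.895 and 1.36 in the mulberry arrays. Mulberry replicates 1, 3 and 4 exceeded every high-fat array. The difference was 1.47 ± 0.50 (SE; limma unadjusted p = 0.0232, adjusted p = 1; exact permutation p = 0.0571, where 4 against 4 arrays allow 0.0286 at least). It was the widest of the 11 members, and Clu kept a difference of 1.02 and 1.34 in its 2 probe sets without both arrays numbered 4. Probe set 1388246_at had the smallest spread and the lowest mean (6.33) of the members. It was at -1.08 after quantile normalization, a sign that does not compare with the other fits.

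Treml1 encodes a receptor-like protein of the alpha-granule membrane that reaches the platelet surface on activation. It was at 0.183, 0.139, 0.281 and -1.99 in the high-fat arrays and -0.291, 0.247, -0.223 and 1.65 in the mulberry arrays. High-fat replicate 4 stood far below the other 3 high-fat arrays, and mulberry replicate 4 far above all other arrays. The difference was 0.69 ± 0.67 (SE; limma adjusted p = 1). It became -1.17 ± 0.64 without both of those arrays, so the direction of the Treml1 difference depended on them.

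The 2 eicosanoid members had differences of opposite sign, neither past the adjusted threshold. Alox12 encodes the platelet-type lipoxygenase acting on arachidonic acid. It was at -0.252, -0.894, 0.0360 and -1.42 in the high-fat arrays and -0.167, 1.07, -0.0805 and 1.71 in the mulberry arrays. Mulberry replicates 2 and 4 were above every high-fat array, and replicates 1 and 3 between them. The difference was 1.27 ± 0.53 (SE; limma unadjusted p = 0.0485, adjusted p = 1; two-sided exact permutation p = 0.114), and 1.01 ± 0.69 without both arrays numbered 4.

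Tbxas1 encodes thromboxane synthase, which makes the platelet activator thromboxane and is also expressed by monocytes and macrophages. Its level was 0.289, 0.502, 0.0728 and 0.560 in the high-fat arrays and -1.93, 0.863, -1.13 and 0.773 in the mulberry arrays. The high-fat arrays lay close together, whereas mulberry replicates 1 and 3 were below all of them and replicates 2 and 4 above. Its difference was -0.71 ± 0.67 (SE; limma adjusted p = 1), the only member mean that was lower with mulberry on the deposited values. It was 0.95 after median centring, which shifted nearly all probe sets upward, and -0.11 with the hybridization controls as a covariate. Without single arrays the Tbxas1 difference ranged from -1.10 (without mulberry replicate 2) to -0.28 (without mulberry replicate 1), and it was -1.06 without mulberry replicate 4 and -0.47 without mulberry replicate 3.

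Tubb1, the beta-tubulin of the platelet microtubule ring, was at 0.142, -1.20, 0.00200 and -1.25 in the high-fat arrays and -0.413, 1.10, 0.00249 and 1.62 in the mulberry arrays. As for Alox12, mulberry replicates 2 and 4 were the 2 highest arrays and high-fat replicates 2 and 4 the 2 lowest. The difference was 1.15 ± 0.57 (SE; limma unadjusted p = 0.0826, adjusted p = 1), and 0.77 without both arrays numbered 4. After quantile normalization Tubb1 had virtually the same value on every array, so its difference was set to 0 and not estimated.

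Nrgn encodes neurogranin, a calmodulin-binding protein best known from neurons whose transcript is also abundant in platelets. It was at -0.846, 0.128, 0.218 and -0.896 in the high-fat arrays and -0.297, -0.564, 0.0191 and 2.24 in the mulberry arrays. Mulberry replicate 4 alone lay above every high-fat array. The difference of 0.70 ± 0.67 (SE; limma adjusted p = 1) was 0.15 without that array and -0.27 without both arrays numbered 4.

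**Figure D2:**
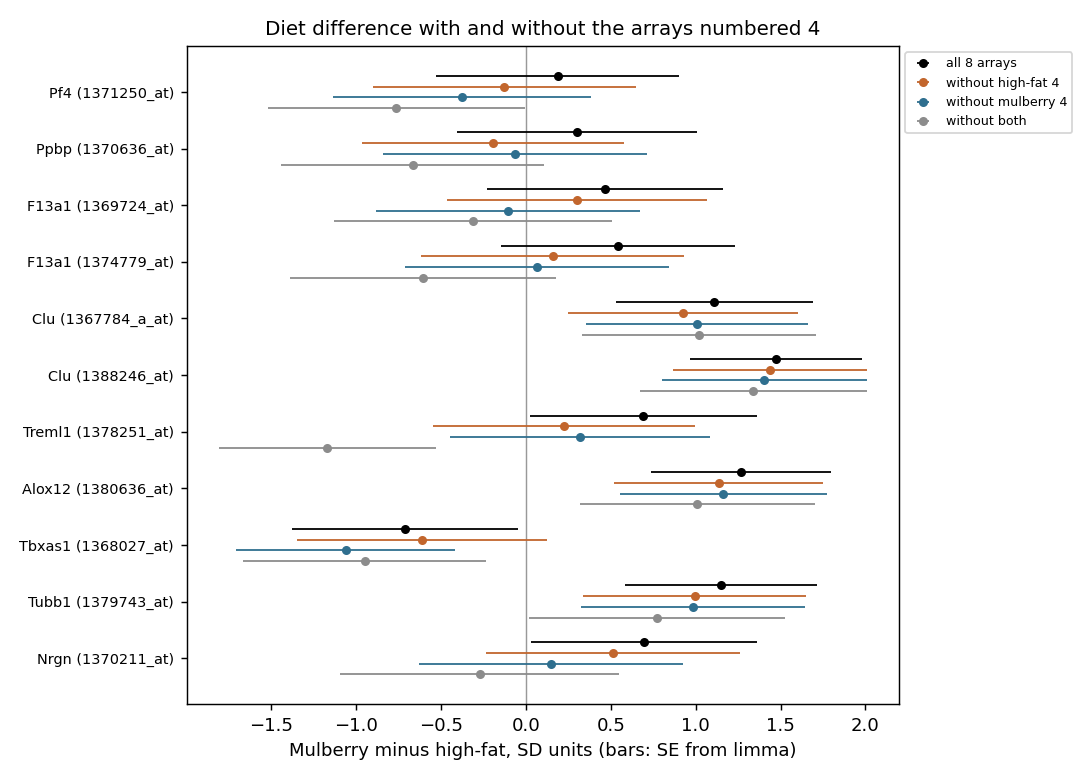
Difference of each member probe set between the diets, mulberry minus high-fat in SD units (x axis; points with limma SE bars), for all 8 arrays and without high-fat replicate 4, mulberry replicate 4 or both. The SD is that of the arrays in each setting, so signs but not sizes compare between settings. Alox12, Tubb1 and both Clu probe sets remained above 0 in all 4 settings, whereas Pf4, Ppbp, both F13a1 probe sets, Treml1 and Nrgn turned below 0 without both arrays.

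In the deposited table the members were among the probe sets of widest spread between arrays. Of the 11 member probe sets, 9 had an SD among the upper 10% of all tested probe sets, and the median SD was 0.000145 for the members against 5.31e-06 for all. Clu 1367784_a_at was at the 99.3 percentile of spread, Ppbp at 98.8, Pf4 at 98.5 and Nrgn at 98.3. Tbxas1 was at 70.6 and Clu 1388246_at at 27.7. These ranks describe the deposited table, whose scale between arrays is compressed, and not the size of a fold change.

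**Figure D3:**
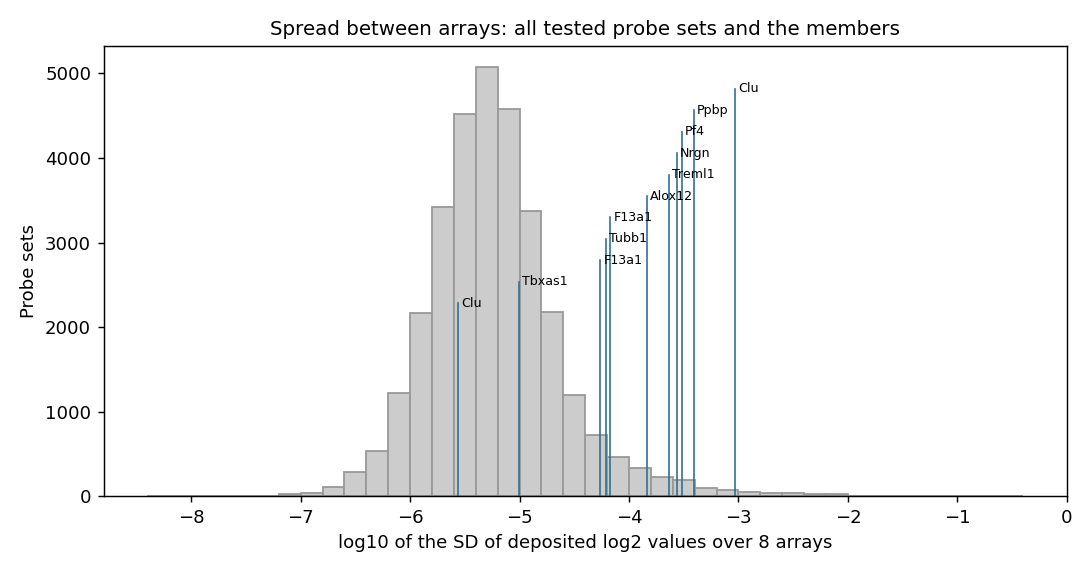
Number of tested probe sets (y axis) by log10 of their SD over the 8 arrays (x axis), with a blue line for each member probe set. The members lie to the right of the bulk, at a median of 0.000145 against 5.31e-06, except Tbxas1 and 1 Clu probe set.

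Mulberry replicate 4 was the highest array for 10 of 11 members, against 10.5% of all probe sets. High-fat replicate 4 was the lowest for 7 of 11, against 16.7%, and 7 members met both conditions, against 2%. The mean over the 9 genes was -0.156, -0.235, 0.281 and -1.09 in the high-fat arrays and -0.525, 0.347, -0.217 and 1.59 in the mulberry arrays. Outside the arrays numbered 4, the remaining 3 of each diet were interleaved. High-fat replicate 4 was also the highest array for the mean of monocyte and macrophage markers (1.58, the other arrays from -0.756 to 0.436) and of natural killer cell markers (1.75, the others from -0.597 to 0.0671). The part of those cells in the platelet values was not tested beyond a fit with the monocyte mean as a covariate, in which 9 of 11 members were higher with mulberry and the median was 0.58.

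The bacterial polyA controls, meant to be added to each RNA before labelling, differed between arrays as well. Their mean over 24 probe sets ran from -1.31 to 0.346 in the high-fat arrays and from -0.160 to 1.23 in the mulberry arrays, with high-fat replicate 4 at -1.23 and mulberry replicate 4 at 0.946. With that mean as a covariate, 6 of 11 members were higher with mulberry and the member median was 0.01. Alox12 was then at 1.07 ± 0.68, Tubb1 at 1.21 ± 0.75 and Clu 1388246_at at 1.15 ± 0.63 (limma SE), while Pf4, Ppbp and both F13a1 probe sets were below 0. The part of labelling in the member values was not tested beyond this fit.

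Member levels were correlated with each other over the 8 arrays. All 55 pairs of member probe sets were compared. Among the 45 pairs without Tbxas1 the Pearson correlation was above 0 in 45, with a median of 0.652, and within diets, after removing each diet's mean, the median was 0.679. Without both arrays numbered 4 the median of these pairs was 0.0496. Those arrays were picked as extremes of most members, and leaving out shared extremes lowers a correlation by itself. The Pearson correlation passed 0.05 after Benjamini-Hochberg adjustment over the 55 pairs in 4 of them, and the Spearman correlation in 0.

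Alox12 and Tubb1 had the highest correlation, with Pearson r = 0.975 (exact permutation p = 0.000546, adjusted 0.0146) and Spearman rho = 0.833 (exact permutation p = 0.0154, adjusted 0.150). It was 0.947 without the 2 arrays farthest from the Alox12 median. Pf4 and Ppbp, the neighbouring chemokine genes, had r = 0.929 (exact permutation p = 0.000794, adjusted 0.0146) and rho = 0.881 (p = 0.00724, adjusted 0.133), and r = 0.943 without the 2 arrays farthest on Pf4. The 2 probe sets of F13a1 had r = 0.922 (exact permutation p = 0.00191, adjusted 0.0263) and rho = 0.952 (p = 0.00114, adjusted 0.0614), and r = 0.887 without 2 arrays. Ppbp and Treml1 had r = 0.844 (exact permutation p = 0.000347, adjusted 0.0146) and rho = 0.929 (p = 0.00223, adjusted 0.0614), and r = 0.754 without 2 arrays. Clu 1367784_a_at had a higher r with Treml1 (0.895), Nrgn (0.888), F13a1 1374779_at (0.883) and Alox12 (0.856), none past the adjusted threshold. Without both arrays numbered 4 these were -0.436, 0.237, 0.349 and 0.305. The 2 Clu probe sets, which can read different transcript forms, had r = 0.694 (exact permutation p = 0.0377, adjusted 0.130), rho = 0.762 (p = 0.0368, adjusted 0.168) and r = 0.725 without 2 arrays. The 10 pairs with Tbxas1 had a median r of 0.176, or 0.369 within diets and 0.0228 without both arrays numbered 4. Over those 6 arrays Tbxas1 had r = 0.931 with Treml1, 0.786 with Ppbp and 0.688 with Pf4, and -0.747 with Clu 1388246_at and -0.596 with Clu 1367784_a_at.

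**Figure D4:**
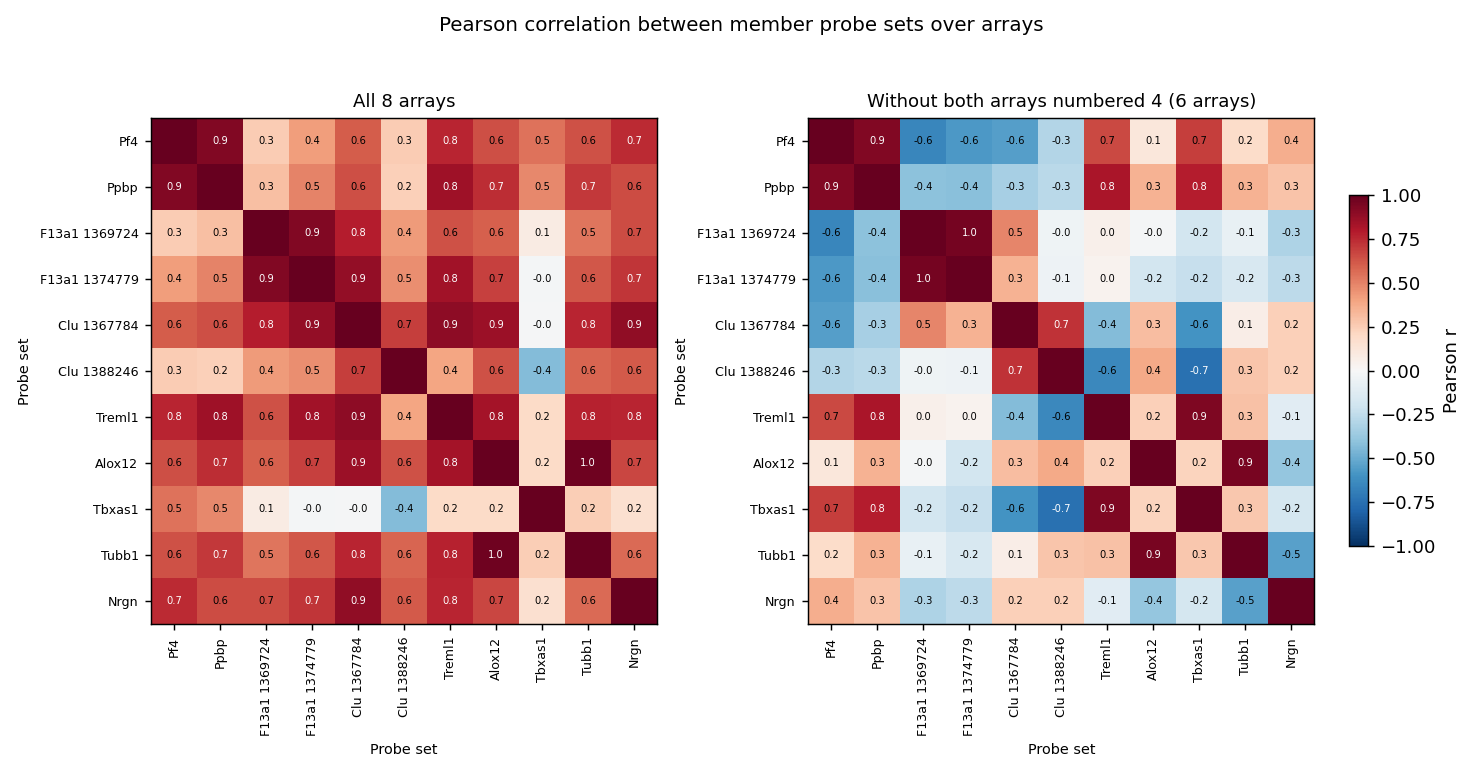
Pearson correlation between member probe sets over all 8 arrays (left) and over 6 arrays without both numbered 4 (right), from blue at -1 to red at 1. The median of the 45 pairs without Tbxas1 went from 0.652 to 0.0496, while Pf4 with Ppbp, Alox12 with Tubb1 and the 2 F13a1 probe sets stayed at 0.925, 0.947 and 0.955.

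Start regions are shown for Alox12 with Tubb1 and for Ppbp with Treml1, pairs past the adjusted Pearson threshold. RefSeq windows (GRCr8) run from 250 bases before to 50 after a gene's start, and 8 of the 10 genes had one, Thbs1 included. No window was used for Pf4 and Clu. They were searched on both strands for the GATA words AGATAA and TGATAA, the ETS words ACAGGAAG and CCGGAAGT, and the NF-E2/AP-1 word TGAGTCA, alone and, as a longer word that overlaps it, preceded by TGC. GATA, ETS and NF-E2 factors are the classical regulators of megakaryocyte genes. Capitals mark a match, and the sequences are those of Alox12 (chr10:55469150-55469449, minus strand), Tubb1 (chr3:183665939-183666238, plus strand), Ppbp (chr14:17587250-17587549, minus strand) and Treml1 (chr9:20139884-20140183, minus strand), each 5′ to 3′ along its gene.
Alox12: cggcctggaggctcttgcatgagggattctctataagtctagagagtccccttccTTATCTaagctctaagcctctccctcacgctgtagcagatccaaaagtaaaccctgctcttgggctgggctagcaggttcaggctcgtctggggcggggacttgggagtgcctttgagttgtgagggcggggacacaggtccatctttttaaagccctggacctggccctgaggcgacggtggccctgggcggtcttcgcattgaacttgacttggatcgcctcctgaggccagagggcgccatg
Tubb1: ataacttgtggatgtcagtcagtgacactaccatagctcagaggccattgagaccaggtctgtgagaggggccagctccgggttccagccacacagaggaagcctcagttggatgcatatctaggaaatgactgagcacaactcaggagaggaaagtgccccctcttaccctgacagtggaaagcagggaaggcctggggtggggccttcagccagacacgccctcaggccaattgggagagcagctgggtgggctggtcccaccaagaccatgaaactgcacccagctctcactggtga
Ppbp: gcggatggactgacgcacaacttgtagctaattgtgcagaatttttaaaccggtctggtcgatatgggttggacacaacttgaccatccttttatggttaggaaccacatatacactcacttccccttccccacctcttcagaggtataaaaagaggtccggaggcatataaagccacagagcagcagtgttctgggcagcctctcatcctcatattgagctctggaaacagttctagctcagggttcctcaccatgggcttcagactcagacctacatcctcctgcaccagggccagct
Treml1: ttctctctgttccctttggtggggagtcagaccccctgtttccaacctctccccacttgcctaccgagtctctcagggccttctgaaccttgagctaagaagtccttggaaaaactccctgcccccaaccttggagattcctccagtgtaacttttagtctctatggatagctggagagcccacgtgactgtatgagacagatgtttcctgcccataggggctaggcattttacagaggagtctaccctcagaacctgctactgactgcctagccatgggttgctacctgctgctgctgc

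Alox12 held 1 match to AGATAA, on the opposite strand and beginning at -195 from the start, a word found in 11.3% of all 27457 windows. The other 3 shown held none of the words. Of the remaining members, F13a1 held ACAGGAAG at -199, a word found in 3.26% of windows. Alox12 and Tubb1, and likewise Ppbp and Treml1, shared no searched word within these windows, which says nothing of the factors themselves, and Pf4 with Ppbp could not be compared. TGATAA was held by 0 of the 8 member windows and 8.89% of all, CCGGAAGT by 0 and 4.01%, TGAGTCA by 0 and 4.53%, and the longer word by 0 and 0.117%.

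In the wider platelet program mulberry replicate 4 had the highest mean for surface receptors (0.998), cytoskeleton (1.13), megakaryocyte transcription factors (0.585) and granule cargo (0.530). For the eicosanoid list high-fat replicate 3 was highest (0.485), and the lowest array varied between lists. Of 18 measured genes for platelet surface receptors, 13 had a higher and 5 a lower mean with mulberry, with a median of 0.66, and 0 passed the limma threshold. Mulberry replicate 4 was highest for 11 of these 18 and high-fat replicate 4 lowest for 11. Itga6, the integrin alpha chain that binds laminin, differed by 1.50 ± 0.43 (SE; limma unadjusted p = 0.0101, adjusted p = 1) without overlap of the diets. It was at 1.55 without both arrays numbered 4, in SDs of the arrays kept. The ATP-gated channel gene P2rx1 differed by 1.27 ± 0.53. Cd36, a fatty acid and thrombospondin receptor that monocytes also carry, differed by -1.26 ± 0.53, also without overlap of the diets. High-fat replicate 1 was at 2.27 for Cd36 and the other arrays from -1.02 to 0.178. Without high-fat replicate 1 the Cd36 difference was -1.66, in SDs of the arrays kept.

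Among 33 measured genes of granule cargo and granule formation, 22 had a higher mean with mulberry and 0 passed (median 0.17). Of these 33, 8 were highest in mulberry replicate 4, and 7 lowest in high-fat replicate 4. Rab27b, a small GTPase of granule secretion, differed by 1.51 ± 0.43 (SE; limma unadjusted p = 0.0101, adjusted p = 1), all 4 mulberry arrays lying above all 4 high-fat arrays. Its value after quantile normalization, 0.48, does not compare with that difference. The alpha-granule proteins Mmrn1, which binds factor V, and Vwf, the von Willebrand factor that tethers platelets, differed by 1.10 ± 0.58 and 1.06 ± 0.59, and both had their lowest level in high-fat replicate 4 and their highest in mulberry replicate 4.

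Of 24 further eicosanoid genes, 13 were higher, 11 lower and 0 passed (median 0.05), and mulberry replicate 4 was highest for 3 and high-fat replicate 4 lowest for 6. Ptgs1, the constitutive cyclooxygenase upstream of Tbxas1, stood at -1.24, 0.0996, 0.410 and -1.56 in the high-fat arrays and 0.0114, 0.176, 0.506 and 1.60 in the mulberry arrays, a difference of 1.15 ± 0.57 (SE; limma adjusted p = 1). The prostaglandin E synthase gene Ptges differed by 0.98 ± 0.62 and the peroxide-reducing Gpx1, also abundant in red cells, by -0.86 ± 0.64. Median centring put Gpx1 at 0.96, and a covariate for the hybridization controls put it at 0.23.

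Of 30 cytoskeletal genes, 19 were higher, 11 lower and 0 passed (median 0.26). Zyx, a focal adhesion protein, differed by 1.47 ± 0.46 without overlap of the diets, the actin-severing Gsn by 1.34 ± 0.50, and Mylk, the myosin light chain kinase, by 1.20 ± 0.55 (SE; limma adjusted p = 1 for each). Mulberry replicate 4 was highest for 13 of these 30 and high-fat replicate 4 lowest for 8, although the mean of the list on high-fat replicate 4 (0.204) was the highest of the high-fat arrays. Of 16 megakaryocyte transcription factors, most of which also act in red cell precursors, 12 were higher and 0 passed (median 0.50). Of them, 4 were highest in mulberry replicate 4 and 3 lowest in high-fat replicate 4. Gfi1b, a repressor needed for platelet formation, differed by 1.30 ± 0.52, Tal1 by 1.25 ± 0.54, without overlap of the diets, and Gata1 by 1.04 ± 0.60. Among the genes named from these 5 lists, Gpx1, Mylk, Itga6, Gfi1b and Tal1 were virtually constant after quantile normalization. Their difference was then set to 0 and not estimated.

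**Figure D5:**
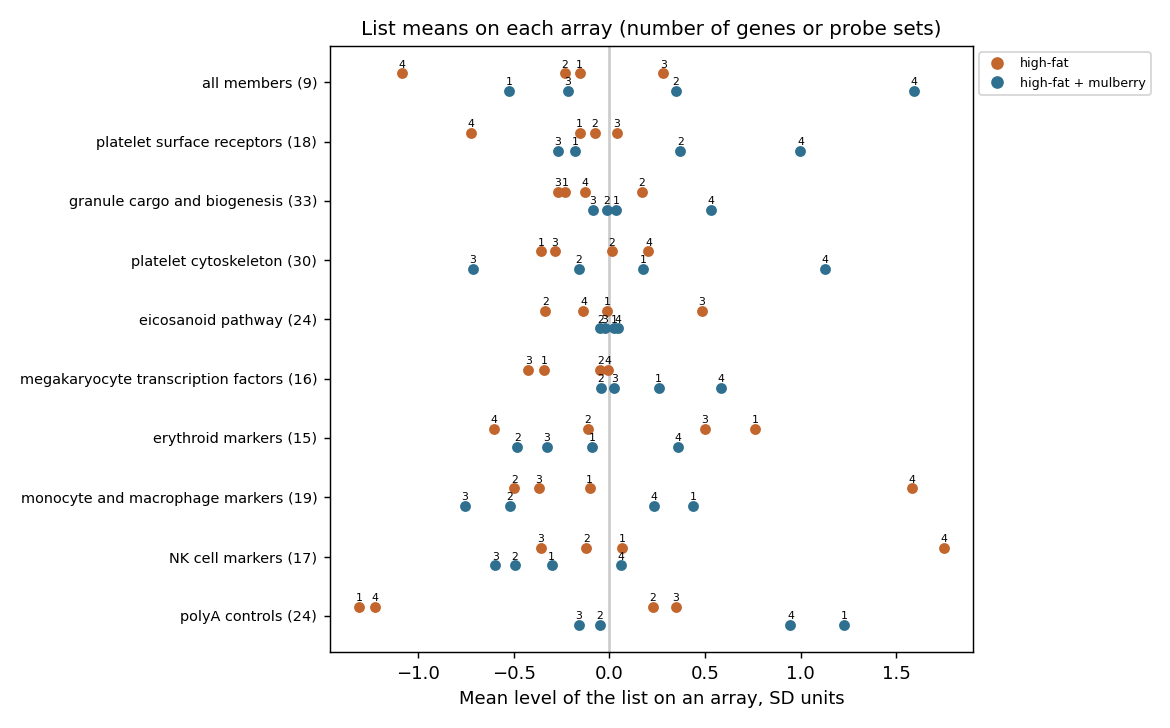
Mean level of each gene list on each array in SD units (x axis), with the number of genes or probe sets beside its name, high-fat arrays in orange, mulberry arrays in blue and replicate numbers above the points. Mulberry replicate 4 is the highest array for the member mean (1.59), cytoskeleton (1.13), surface receptors (0.998), megakaryocyte transcription factors (0.585) and granule cargo (0.530). High-fat replicate 4 is the highest for the monocyte (1.58) and natural killer (1.75) lists.

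The non-member genes most like the member mean over the 8 arrays, by Pearson correlation among 20815 candidate probe sets, were Reep2 (r = 0.972), Tmem140 (0.964), Chchd3 (0.960), Tmem205 (0.958) and Myl9 (0.956), the regulatory light chain of platelet and smooth muscle myosin. Their diet differences ran from 0.49 ± 0.69 for Tmem205 to 1.02 ± 0.60 for Tmem140 (limma SE), and Myl9 differed by 0.84 ± 0.64.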

How the data were processed

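Whole blood RNA (200 ng per array, per the labels) was profiled on 8 Affymetrix arrays. The authors deposited 1 value per probe set and array, taken here as log2 from its range (5.173 to 15.26). How probe sets were summarised and normalized is not given in the sources used here. Signal over background was not used, so the number of arrays limits the precision. After 57 control probe sets were left out, 31042 were tested with limma 3.58.1 under R 4.3.3 (two-sided moderated test, Benjamini-Hochberg threshold 0.05, no covariate). Of these, 20826 named 1 gene, 436 several and 9780 were unnamed here. Members and gene lists were chosen with earlier results of these data known. Named genes were all members, the 3 of smallest unadjusted p in each platelet list, and 1 or 2 per cell type list, using a gene's probe set of highest mean, with 5 genes most like the member mean. Exact permutation tests used all 70 assignments, or 40320 orders for a correlation (Python 3.11.15). On simulated data with 31042 probe sets, limma recovered 36% of probe sets shifted by 4 SDs of their group, all (100%) shifted by 8, and 98% of those shifted by 16, and it wrongly called 9 that were not shifted. The fit was repeated with quantile or median scaling, without dim probe sets, with the replicate number as a block, with trended variances, array weights or covariates, without single arrays, with 1 probe set per gene and without the cross-matching probe sets. Omitting both arrays numbered 4, and centring each array's SD-unit values, were added after the data were seen.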

Additional observations from a re-analysis of the deposited data

Results flagged for a closer look

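A value was noted where the gap between 1 array and the nearest of its 4 group members exceeded Dixon's critical share of the group's range, which chance alone gives in about 1 of 20 groups. Of 72 groups checked, 8 were noted. In high-fat replicate 4 these were the lowest levels of the alpha-granule genes Treml1 (-1.99), Vwf (-1.84) and Mmrn1 (-1.36). The groups checked were those of the members, their mean and the named list genes, many of which were chosen as platelet genes. High-fat replicate 1 was the highest of its group for Cd36 (2.27). High-fat replicate 2 was the lowest for Gpx1 (-1.15) and for the erythroid transcription factor gene Klf1 (-0.739). Mulberry replicate 4 was the lowest of its group for Ptges (-0.842) and the highest for Klf1 (0.837).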

How the results depend on the processing

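The count of members past the adjusted threshold was 0 under every alternative run. Over all probe sets it was 12 after quantile normalization and 0 under the others. Quantile normalization left many probe sets virtually constant, with their difference set to 0 (median over all probe sets 0, 28.1% higher). Its 12 calls (smallest limma adjusted p = 4.29e-15), differences and signs therefore cannot be compared with the other fits. The member median was -0.309 without both arrays numbered 4, in SDs of the arrays kept, as for every omission below. When each array was left out in turn it ranged from 0.149 (without mulberry replicate 4) to 0.915, and it was 0.299 without high-fat replicate 4. With a covariate it was 0.0125 for the polyA controls, 0.578 for the monocyte markers, 0.814 for the hybridization controls and 1.03 for the erythroid markers, where 5 of 11 members had an unadjusted p under 0.05 against 2 without it. That count was 0 with the polyA controls, and 1 with the monocyte markers or the hybridization controls. Signs turned as follows. Without both arrays numbered 4, F13a1 was at -0.309 and -0.605, Nrgn at -0.271, Ppbp at -0.666, Pf4 at -0.761 and Treml1 at -1.17. Leaving out single arrays gave -0.377 to 0.974 for Pf4, -0.191 to 0.844 for Ppbp and -0.104 to 1.15 for F13a1 1369724_at. With the polyA controls F13a1 was at -0.217 and -0.189, Ppbp at -0.0802 and Pf4 at -0.0235, and Pf4 was at -0.0134 with the monocyte covariate. After quantile normalization Clu 1388246_at was at -1.08, Ms4a7 at -0.707, Ctss at 0.619 and F13a1 1374779_at at 0. Pf4 and Tubb1, virtually constant there, were set to 0. After median centring Tbxas1 was at 0.954, Gpx1 at 0.955, Cd3g at 0.949 and Klrc1 at 0.749. With the hybridization controls Gpx1 was at 0.231 and Ahsp at 0.0412. The cause of these changes was not tested. In all, 198 member values kept their direction, 18 reversed and 3 became or were set to 0. The 198 include the replicate block and the trended variances, which cannot alter a difference. These counts also include quantile normalization and median centring, whose signs do not compare with the other fits. Whether the replicate numbers pair the arrays could not be told from the values. Correlations of same-numbered deviations were -0.0462, -0.0505, 0.246 and 0.163, and those of differently numbered arrays ran from -0.199 to 0.147. With the replicate block 0 probe sets passed. The member median was 0.692 as without it, which was fixed in advance because each number occurs once per diet.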

Other observations

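Markers of the other blood cells gave these values, with 0 genes past the limma threshold in any list and, at an unadjusted p under 0.05, only Cd3g. Erythroid markers had a lower mean with mulberry in 10 of 15 measured genes, among them Ahsp, the chaperone of alpha-globin (-1.09 ± 0.58), and Klf1 (-1.07 ± 0.59). Monocyte and macrophage markers were lower in 14 of 19, with Ms4a7 at 1.20 ± 0.58 and the lysosomal protease gene Ctss at -0.84 ± 0.64. Natural killer markers were lower in 15 of 17 (Klrc1, -1.21 ± 0.55) and B cell markers in 13 of 13 (Fcer2, -1.03 ± 0.60). Neutrophil markers were higher in 8 of 12 (Padi4, 1.07 ± 0.60) and T cell markers in 11 of 17. Cd3g of the T cell receptor complex was nonetheless at -1.40 ± 0.48, and set to 0 after quantile normalization, where it was virtually constant. Basophil, mast cell and eosinophil markers were higher in 12 of 17 (Hdc, 0.98 ± 0.61). Errors are SE from limma, and all adjusted p were 1.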
